A study of Bos taurus with 12 samples.

Results

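The microRNA bta-miR-383 (miRBase identifier MI0009823) was examined as 1 of 640 miRBase features, among 2712 small RNA features in all, in 12 longissimus muscle libraries. Of the 2712 features, 1398 had the value 0 in all 12 libraries, and 431 of the 640 miRBase features varied. bta-miR-383 was selected on its measured difference between d 124 and d 0 of time-on-concentrates (TOC). The study lists it as higher at d 124. Its difference is therefore given as a description, and no test of that difference is made. The libraries came from 4 Angus-cross yearling steers that shared a sire and were fed a high concentrate diet, after step-up rations. The authors picked these steers for sequencing because their intramuscular fat was near the mean at d 92 and d 124. Each steer gave a biopsy at the start (d 0), at d 92 and at d 124, for 4 libraries per time, and the steer is the replicate number. The d 0 libraries were taken as concentrate feeding began and serve as the control for both later times. All animals received the diet, so no group kept off concentrates shows what age alone does, and the biopsy moved from the left side at d 0 to the right side at d 92 and to another rib of the left side at d 124. Time, age and biopsy site therefore cannot be told apart. In a biopsy of whole muscle, fewer cells of a type and less RNA per cell cannot be told apart either.

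MicroRNAs are short RNAs cut from a hairpin precursor. They guide a silencing complex to messenger RNAs, mainly through the seed near their 5′ end, and lower the stability or the translation of those messages. In humans the gene of miR-383 lies in an intron of SGCZ, which encodes zeta-sarcoglycan, a member of the sarcoglycan family of the muscle cell membrane that is linked to dystrophin. In cattle the gene is annotated as MIR383. In the ARS-UCD2.0 annotation, another build than the bosTau4 genome that the authors aligned to, SGCZ is the next protein coding gene on one side of MIR383 and LOC515227 on the other. The span annotated for SGCZ does not include MIR383, and 0 annotated genes span it, so that annotation places bta-miR-383 beside SGCZ and not in an intron of it. Messenger RNA of SGCZ was not analysed here.

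The values were deposited on a log2 scale with each feature's median over the libraries taken off. Many features share a lowest value in several libraries, which was read as a floor that the normalization had set. That reading is inferred from the values. bta-miR-383 had 2 libraries tied at its minimum, and on this reading its level in each library could be expressed over the floor (0 on the log2 scale and 1 on the linear scale). Of the 368 miRBase features above their own minimum in at least 4 libraries, 56 were at the floor in 3 or more libraries, and between 18 and 34 of these 56 were at the floor in any 1 library. The table holds no read counts, so it does not give the depth by library. The names of the other features are known here only for those that the study's tables pair with a miRBase identifier. Of the muscle miRNAs sought, this left bta-miR-208b, a miRNA of slow muscle fibres, and its values do not serve as a check of the tissue. Its log2 difference between d 0 and d 124 was -0.97, and the part of fibre type in the level of bta-miR-383 was not tested.

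bta-miR-383 was a miRNA of low and variable level that was highest at d 124 and was detected in all 4 libraries only at that time. At d 0 its normalized level over the floor (log2) was 0 in steer 1, 3.11 in steer 2, 1.34 in steer 3 and 2.98 in steer 4. Steers 2 and 4 were close to each other, steer 3 was lower, and the library of steer 1 was at the floor. At d 92 the level was 3.55 in steer 1, 2.87 in steer 2, 3.41 in steer 3 and 0 in steer 4. The library at the floor was now that of steer 4, and the other 3 lay close together. At d 124 the level was 2.70 in steer 1, 3.71 in steer 2, 3.83 in steer 3 and 3.63 in steer 4. None was at the floor, and the lowest of them, that of steer 1, lay below 2 of the d 0 libraries and 3 of the d 92 libraries. The 3 times thus overlapped.

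**Figure D1:**
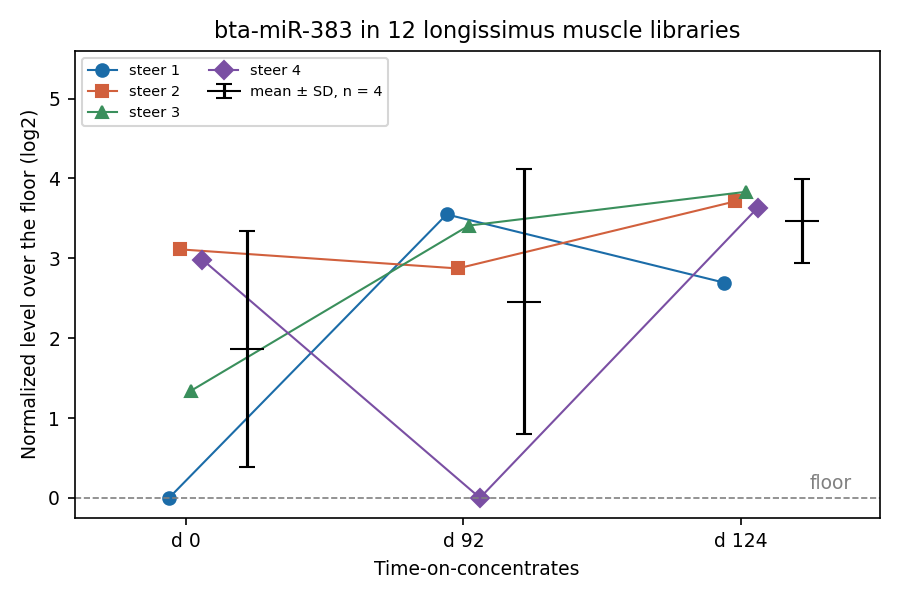
Normalized level of bta-miR-383 over the floor (log2, vertical axis) by time-on-concentrates (horizontal axis, times evenly spaced and not to scale), with 1 line per steer and black bars for the mean ± SD of the 4 libraries of a time. The library of steer 1 at d 0 and that of steer 4 at d 92 are at the floor, while the 4 libraries at d 124 lie between 2.70 and 3.83.

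With 4 libraries per time, the mean level (log2) was 1.86 ± 1.48 (SD) at d 0, 2.46 ± 1.66 (SD) at d 92 and 3.47 ± 0.52 (SD) at d 124. On the linear scale the means were 5.02 ± 3.82, 7.67 ± 4.82 and 11.6 ± 3.48 (SD, n = 4 at each time). The order of the means was d 0, d 92 and d 124 on both scales. The steps from d 0 to d 92 and from d 92 to d 124 were each smaller than the SD between libraries of a time, which was 1.32 (log2) when pooled over the times. Over the libraries above the floor, the means were 2.48 ± 0.99 at d 0 and 3.28 ± 0.36 at d 92 (SD, n = 3 each), against 3.47 ± 0.52 for the 4 libraries of d 124, so that d 92 and d 124 came near each other once the floor library of steer 4 was set aside.

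Between d 0 and d 124, the contrast by which the miRNA was chosen, the log2 difference fitted by limma was 1.61 (standard error 0.93), or 3.05-fold. By steer the difference was 2.70, 0.60, 2.49 and 0.65 in steers 1, 2, 3 and 4. The larger values belonged to steers 1 and 3, whose d 0 libraries were the lowest. The value of steer 1 was taken from the floor, so its size depends on where the floor lies. bta-miR-383 was higher in 4 of 4 steers, and it was 1 of the 6 of 368 miRBase features (1.63%) that were. The groups did not separate, since 2 d 0 libraries lay above the lowest d 124 library. In this comparison 10 of 368 features (2.72%) had groups that did not overlap. No other of the 368 features had a larger rise in log2 level, against a median difference of -0.066 over all of them. That rank describes the same values by which the miRNA was chosen. Some falls were larger in size, down to -1.68. Without the d 0 library of steer 1 the log2 difference was 0.99, and adding 10 to the linear level before the logarithm gave 0.54. The rank among the features was not worked out again under either change.

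Between d 0 and d 92 the steers differed in direction. The level was higher at d 92 by 3.55 (log2) in steer 1 and by 2.07 in steer 3, differed by -0.24 in steer 2 and by -2.98 in steer 4. Both the highest and the lowest of these values involve a library at the floor. The fitted log2 difference was 0.60 (standard error 0.93), or 1.51-fold, and 21 of 368 features had a larger rise. Falls reached -1.74. The libraries of these times overlapped, while 12 of 368 features (3.26%) had groups that did not. Without the d 0 library of steer 1 the difference was -0.021, and without the d 92 library of steer 4 it was 1.42. With both of these floor libraries left out it was 0.80. The study's analysis of variance by time used all 12 libraries, and this comparison shares the d 0 libraries with the contrast that chose the miRNA, so no test of it is given.

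Between d 92 and d 124 the level was higher at d 124 in 3 of 4 steers, by 0.84 (log2) in steer 2, 0.42 in steer 3 and 3.63 in steer 4, and differed by -0.85 in steer 1. The fitted log2 difference was 1.01 (standard error 0.93), or 2.01-fold, and 3 of 368 features had a larger rise. Some falls were larger in size, down to -1.85. The libraries overlapped here too, while 4 of 368 features (1.09%) had groups that did not. The comparison shares the d 124 libraries with the contrast that chose the miRNA. Steer 4 supplied most of it. Without the d 92 library of steer 4, at the floor, the difference was 0.19.

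Among the miRBase features tested, none passed the adjusted threshold between times. In limma with Benjamini-Hochberg adjustment, 0 of 368 miRBase features (0%) had an adjusted p under 0.05 in any of the 3 comparisons. These counts are a background, and nothing is read from them about bta-miR-383. At an unadjusted p under 0.05, 19 passed at d 92 against d 0 (5.16%), 33 at d 124 against d 0 (8.97%) and 5 at d 124 against d 92 (1.36%). The spread of bta-miR-383 was large for a feature of this table. Its SD between libraries of a time was exceeded by 9 of 368 features, and the median of that SD over the 368 was 0.52 (log2).

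**Figure D2:**
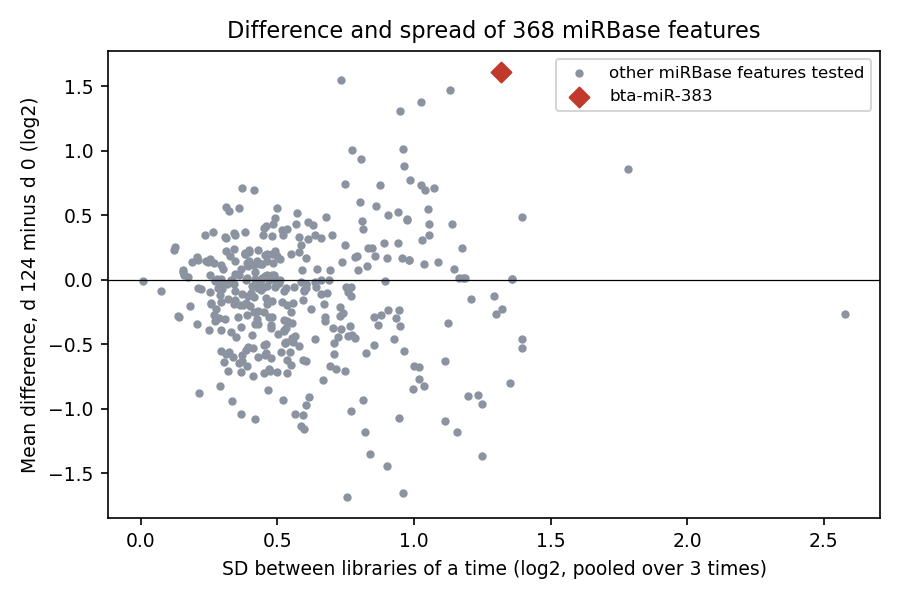
Mean difference between d 124 and d 0 (log2, vertical axis) against the SD between libraries of a time (log2, horizontal axis) for 368 miRBase features, with bta-miR-383 as the red diamond. bta-miR-383, which was chosen on this difference, has the highest, 1.61, and a pooled SD of 1.32 that only 9 features exceed.

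The low levels of each library form a ladder of values that several features share. A step was taken to hold features of equal low abundance, given the same value by quantile normalization. That reading is inferred and was not tested. These shared levels were read from 500 features that were at the floor in 3 or more libraries. The lowest shared level above the floor lay between 1.02 and 1.94 on the linear scale and was held by between 42 and 109 features. The gap from the lowest to the second shared level lay between 0.64 and 1.85, so the grain of the measurement differed between libraries. In the d 0 library of steer 1, where bta-miR-383 was at the floor, the lowest shared level was 1.94 and the next was 3.79, and the gap of 1.85 was the widest of the 12 libraries. In the d 92 library of steer 4, also at the floor, they were 1.90 and 3.08. A value at the floor in these libraries says only that bta-miR-383 was under that lowest shared level.

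bta-miR-383 was near the bottom of the ladder in 1 further library. In the d 0 library of steer 3 its level of 2.54 (linear) was the second shared level and was held by 28 other features. For steer 4 at d 0 its level of 7.91 lay above 3 shared levels, and in the d 92 library of steer 2 its level of 7.33 lay above 5. The highest level, 14.3 in the d 124 library of steer 3, lay above 5 shared levels. The number of reads that a step of the ladder stands for is not stated. The lowest shared level was 1.02 for steer 1 at d 124 and 1.03 for steer 2 at d 0, next to the floor itself, so lower steps may be hidden by the floor in both libraries.

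**Figure D3:**
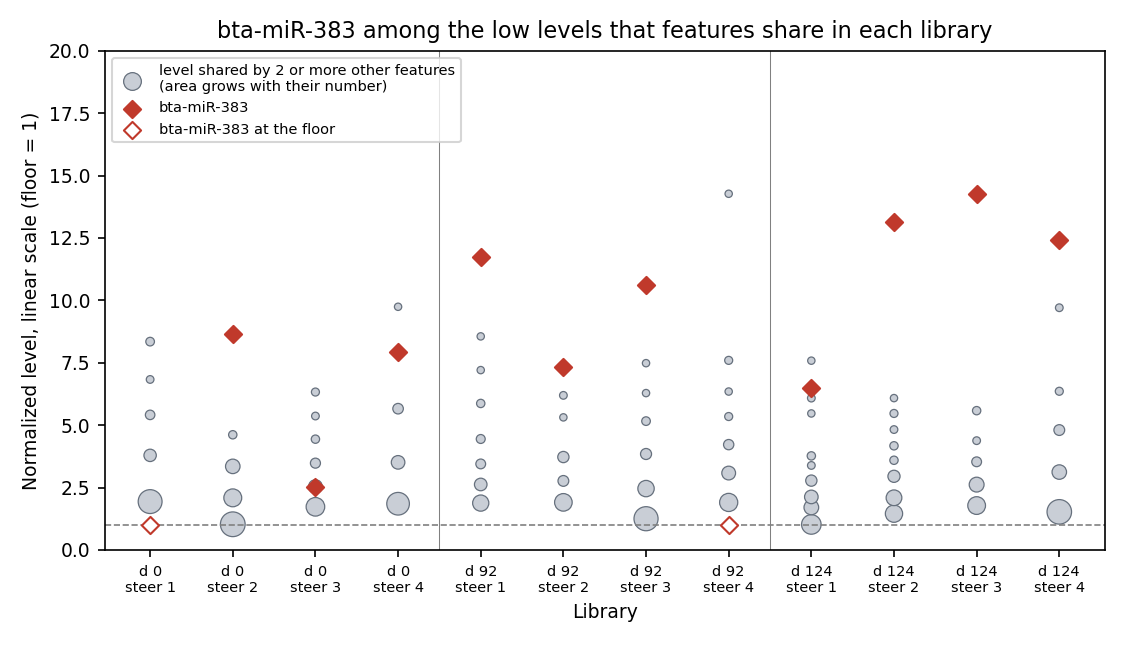
Normalized level on a linear scale (vertical axis, floor = 1 as the dashed line) in each of 12 libraries, with grey circles for levels shared by 2 or more other features and red diamonds for bta-miR-383, open where it is at the floor. For steer 3 at d 0 bta-miR-383 sits on the second step of the ladder, at 2.54, and at d 124 it lies between 6.48 and 14.3.

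The 2 libraries at the floor were not alike in how many other features were there. Of the 56 miRBase features used for this count, 23 were at the floor in the d 0 library of steer 1, below the median of 26 over all libraries, and 34 in the d 92 library of steer 4, the highest count of the 12. The part of these numbers in the floor values of bta-miR-383 was not tested. Of 1001 other small RNA features above their minimum in at least 4 libraries, 63 were at their minimum in both of these libraries, 13 of them from miRBase, and 4 were at their minimum in these libraries and in no other.

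The question of whether steers differ in bta-miR-383 can be tested, since the choice of the miRNA used the times and each steer has 1 library per time. The mean level over the times (log2) was 2.08 in steer 1, 3.23 in steer 2, 2.86 in steer 3 and 2.21 in steer 4. Steers 1 and 4, each with 1 library at the floor, had the lower means. The range of these means was 1.15. A two-sided exact permutation test of the sum of squares between steers exchanged libraries within each time, with 576 arrangements. This permutation test found no difference between steers (p = 0.767, where the smallest possible p is 0.00174). With 1 library per steer and time, that does not show that the steers are alike. As the steers were picked for intramuscular fat near the mean, the test does not extend to other animals. In limma with time and steer as terms, the adjusted p of bta-miR-383 for the steers was 0.874, and 4 of 368 features (1.09%) had an adjusted p under 0.05, with 35 (9.51%) at an unadjusted p under 0.05. Steer 2 was the steadiest, with levels between 2.87 and 3.71, and steer 4 had 2.98, the floor and 3.63 at the successive times.

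Few features varied with bta-miR-383 over the 12 libraries. The 12 libraries are 4 steers at 3 times and were normalized together, so a correlation over them is a description. Over 367 other miRBase features, Pearson's r of the log2 values lay between -0.78 and 0.73, with a median of -0.057. An r of 0.6 or more in either direction was found for 11 of 367 features. Over the 10 libraries where bta-miR-383 was above the floor, it was found for 21 of 367. The number to expect of unrelated features was not worked out. It is larger over fewer libraries, so the counts of 11 and 21 cannot be compared, and neither is read as an excess. The 2 features most like it were MI0011545 (r = 0.73, Spearman's rho = 0.72) and MI0009794 (r = 0.73, rho = 0.68). No source used here pairs them with names, and no shared function is implied.

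MI0011545 had levels over its own minimum (log2) of 0, 3.30, 0.79 and 0.89 in steers 1 to 4 at d 0. At d 92 the levels of MI0011545 were 2.15, 2.41, 3.41 and 1.62, and at d 124 they were 2.13, 2.92, 2.48 and 2.67. Like bta-miR-383 it was lowest in the d 0 library of steer 1, but it was not at its minimum in the d 92 library of steer 4. MI0009794 had levels of 0, 1.06, 0.79 and 1.81 in steers 1 to 4 at d 0, of 1.79, 0.93, 1.30 and 0 at d 92 and of 0, 1.56, 0.83 and 2.26 at d 124. It was at its minimum in both libraries where bta-miR-383 was at the floor, and also in the d 124 library of steer 1. Of the 5 features of highest r, this was the 1 feature at its minimum in both.

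The features that ran most against bta-miR-383 were MI0004750 (r = -0.78, rho = -0.76) and MI0010441 (r = -0.73, rho = -0.44). MI0004750 had its highest levels over its own minimum, 1.30 and 1.23, in the d 0 library of steer 1 and the d 92 library of steer 4. Its lowest levels, 0 and 0.033, were in d 124 libraries of steers 4 and 2, with 0.033 also in the d 92 library of steer 3. The r of MI0010441 rested on fewer libraries, since it was at 2.42 in the d 92 library of steer 4 and at its minimum in 5 others. Without the 2 libraries where bta-miR-383 was at the floor, r was 0.66 for MI0011545, 0.47 for MI0009794, -0.66 for MI0004750 and -0.46 for MI0010441. The rest of the 5 features of lowest r changed sign, from -0.71 to 0.34, from -0.67 to 0.21 and from -0.67 to 0.056. The 5 of highest r all stayed positive.

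**Figure D4:**
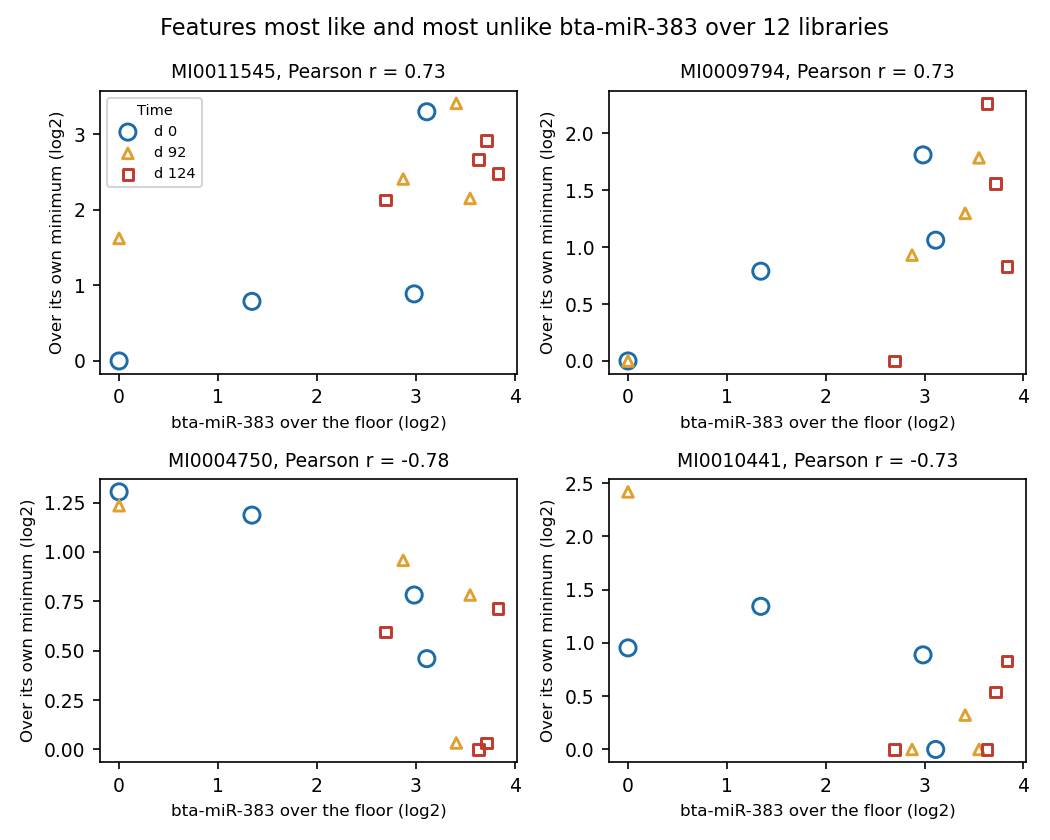
Level of 4 miRBase features over their own minimum (log2, vertical axes) against the level of bta-miR-383 over the floor (log2, horizontal axes) in 12 libraries, marked by time, for the 2 features of highest r (upper panels, 0.73 each) and the 2 of lowest r (lower panels, -0.78 and -0.73). The points at 0 on the horizontal axes are the d 0 library of steer 1 and the d 92 library of steer 4, and the other 10 libraries lie at 1.34 or above.

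The other 7 features that the study lists as higher at d 124 share their libraries with bta-miR-383, and their values are set beside it without a comparison. The log2 difference between d 0 and d 124 was 1.55 for bta-miR-2346 and 0.48 for bta-miR-122, the main miRNA of liver. For the miRNAs of blood cells it was 1.38 for bta-miR-144, of the red cell lineage, and 0.52 for bta-miR-142, of white blood cells. For bta-miR-505 it was 0.16, and for bta-miR-1248-1 and bta-miR-1248-2 it was 0.23 and 0.71. The study lists larger log fold changes, of a base not stated, for bta-miR-122, bta-miR-505, bta-miR-142 and bta-miR-1248-1. The reason was not examined. Between d 0 and d 92, bta-miR-144 had a log2 difference of 1.54 and bta-miR-142 of 0.81, against 0.60 for bta-miR-383. The part of blood in the biopsies in the level of bta-miR-383 was not tested.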

How the data were processed

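Total RNA of longissimus muscle biopsies was made into small RNA libraries and sequenced on an Ion S5 by the authors, who used StrandNGS (version not stated) for alignment to bosTau4 and for quantile normalization. The authors deposited log2 values, 1 column per library, from which each feature's median had been subtracted. Base 2 was assumed for the logarithm. The samples' codes read d 90 where the labels give d 92.

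The row minimum of bta-miR-383, tied in 2 libraries, was taken as the floor, a reading inferred from the values. Shared levels were those held within 5e-06 by 2 or more of the features at their minimum in 3 or more libraries. Differences were fitted on 368 miRBase features by limma 3.58.1 (R 4.3.3), with trend and robust options, on all 12 libraries, with a term for time alone and Benjamini-Hochberg adjustment. The table holds no counts, so no count model was used. Other values were computed with Python 3.11.15, numpy 2.4.6 and pandas 2.3.3. The code was tested on simulated data. As same-numbered libraries come from 1 steer, the numbers pair the samples. Deviations of same-steer libraries from the time means correlated by between -0.051 and 0.44 (median 0.12, 12 pairs), against a median of -0.026 over 36 pairs of different steers.

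The features named are bta-miR-383, the miRBase features of highest and lowest r (5 in each direction, of which 2 identifiers are printed, as no source used here pairs them with names) and the miRNAs listed as higher by the study. miRNAs of the same seed were not sought, since no mature sequence of bta-miR-383 is in the sources used here. Of the marker miRNAs sought for muscle, blood, endothelium, stroma, nerve and liver, those without a paired identifier were not analysed here. The miRNA and the lists were chosen with earlier results of these data known. The alternatives were leaving out each library, the steer as a block, medians, pseudocounts, no filter, and other measures of likeness.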

Additional observations from a re-analysis of the deposited data

Results flagged for a closer look

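In MI0010441, the d 92 library of steer 4 lay above the others of its time, with a gap to the nearest of 0.867 of the range of the group, over Dixon's critical value for 4 libraries. MI0010441 was picked for its r with bta-miR-383 over these same libraries, this library included, so the gap is a description of the choice and not independent of it. In all, 15 groups were examined over bta-miR-383 and the printed features, and 0.75 would be expected to pass by chance for normal, unselected values. Some values here were tied at a minimum and the printed features were picked by r, so that number is only a rough guide. The gaps of bta-miR-383 itself did not pass, at 0.809 for the floor library of steer 4 at d 92 and 0.823 for the library of steer 1 at d 124.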

How the results depend on the processing

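The log2 difference of bta-miR-383 stayed within the SD between libraries of its reported value under all alternatives run, which that wide SD allows easily. Leaving out 1 library gave between -0.021 and 1.42 at d 92 against d 0, between 0.99 and 2.03 at d 124 against d 0 and between 0.19 and 1.37 at d 124 against d 92. With the steer as a replicate block the differences were 0.60, 1.61 and 1.01 as before, with a standard error of 0.97, and the block changed no call. With log2(value + 10) they were 0.22, 0.54 and 0.32. Without the floor libraries they were 0.80, 0.99 and 0.19. The range of steer means lay between 0.78 and 1.15 without 1 steer. The exact permutation p for the sum of squares between steers then lay between 0.556 and 0.833. The number of miRBase features at an adjusted p under 0.05 stayed at 0 for the times under all alternatives run, and at 4 for the steers without the filter. At an unadjusted p under 0.05, 20 passed at d 124 against d 0 without d 124 replicate 1, and 14 at d 124 against d 92 without d 92 replicate 3. The features most like bta-miR-383 changed with the measure. Of the 5 of highest r, 3 remained by Spearman's rho, 3 with time means subtracted, 1 without the floor libraries and 1 over all small RNA features. Of the 5 of lowest r, 5 remained with time means subtracted, 1 by Spearman's rho, 1 without the floor libraries and 1 over all small RNA features, where the table has more features to choose from. The cause was not tested for the others. The table does not give depth by library, and a level at the floor bounds bta-miR-383 only by the lowest shared level of that library.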
